A study of Mus musculus with 6 samples.

Results

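The olfactomedin family was followed through 6 RNA-Seq libraries of primary mesangial cells of the mouse, which hold up the capillaries of the kidney glomerulus and can contract. It was taken here as 7 genes, Olfm1, Olfm2, Olfm3, Olfml1, Olfml2a, Olfml2b and Olfml3, and its members were found by gene symbol among the 19730 rows of the expression table. A row matched 4 of the 7, Olfm1, Olfm2, Olfml2a and Olfml2b, with 1 row each. Olfm3, Olfml1 and Olfml3 were not analysed here. The family had been picked for its levels in the Control libraries against the TGF-β1 libraries. The members' differences between these groups are therefore a description, given without p-values. Where a fit's call of a member is stated, nothing is read from it.

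There were 3 Control libraries and 3 libraries of cells given transforming growth factor beta 1 (TGF-β1), a secreted protein that drives scarring, at 10 ng/ml for 72 h. Both groups were the same mouse mesangial cells, used at passages 3 to 6 and grown in high-glucose medium (25.5 mM) with 20% foetal bovine serum, so that every comparison below was made against a high-glucose background. The labels name no strain or genotype, and no vehicle for the Control cells. They do not say whether the 3 libraries of a group came from separate cultures, so p-values measure only the spread between these libraries, which may be technical.

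Proteins of the olfactomedin family share a propeller-shaped domain at their carboxy-terminal end, and most are secreted glycoproteins that assemble into larger complexes outside the cell. The noelins, Olfm1, Olfm2 and Olfm3, are best known from neurons, where they associate with glutamate receptors at the cell surface, and Olfm2 has also been described in the TGF-β-driven differentiation of smooth muscle. The photomedins, Olfml2a and Olfml2b, bind chondroitin sulphate chains in the extracellular matrix, and Olfml3 has been described as a scaffold that brings the protease Bmp1 to the BMP antagonist chordin. Mesangial cells share a contractile, pericyte-like character with smooth muscle and lay down the matrix at the centre of the glomerulus.

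The 4 members lie on 3 chromosomes (build mm9, positions from the GENCODE M1 annotation). Olfm2 lies on chromosome 9, 20472144 to 20532673, on the minus strand, and its row names a coding transcript of 1826 nt in 6 exons. Olfml2a lies on chromosome 2, 38787498 to 38819273, on the plus strand, with a transcript of 5579 nt in 8 exons, and it overlaps the pseudogene Gm13473 on the same strand. Olfml2b lies on chromosome 1, 172574663 to 172612920, on the plus strand, with a transcript of 3095 nt in 8 exons. Olfm1 lies on chromosome 2, 28048512 to 28086256, on the plus strand, and has 5 annotated transcripts. The Olfm1 row names a non-coding one of 1102 nt in 4 exons, and the sources used here leave unsaid whether its value is that of the whole gene or of that transcript alone, so the Olfm1 values carry that limit. The longest annotated coding sequences were 448 codons for Olfm2, 485 for Olfm1, 681 for Olfml2a and 746 for Olfml2b. No run of 30 nt was shared between the coding transcripts of any of the 21 pairs among the 7 members.

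The regions just upstream of the start sites are shown because the members differed in how many starts they had and in base composition. They are the 250 bases before each RefSeq start (build GRCm38.p6), 5′ to 3′ on the gene's strand. All 7 members were matched in RefSeq, with 11 starts, and the 5 regions of the members with the larger differences or levels are printed. Capitals mark matches on either strand to the SMAD box (CAGAC, the short element that TGF-β-activated Smad proteins bind) and the GC box (GGGCGG, bound by Sp1-type factors), with overlapping matches counted apart. Olfm2 has 3 starts, and the second coincides to the base with the start of the transcript in its row, the first lying at -18067 nt (upstream) and the third at 1226 nt (downstream) from it.
Olfm2 start 1, chr9:20746297-20746546, minus strand: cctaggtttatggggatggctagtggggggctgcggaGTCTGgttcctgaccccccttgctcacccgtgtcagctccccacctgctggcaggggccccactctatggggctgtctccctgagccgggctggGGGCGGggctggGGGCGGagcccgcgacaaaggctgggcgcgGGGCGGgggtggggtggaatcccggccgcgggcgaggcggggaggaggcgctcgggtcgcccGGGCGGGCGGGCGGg
Olfm2 start 2, chr9:20728230-20728479, minus strand: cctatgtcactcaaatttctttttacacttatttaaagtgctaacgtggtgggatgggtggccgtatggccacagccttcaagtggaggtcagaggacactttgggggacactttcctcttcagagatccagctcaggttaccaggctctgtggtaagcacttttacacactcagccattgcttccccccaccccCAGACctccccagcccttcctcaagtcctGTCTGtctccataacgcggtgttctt
Olfm2 start 3, chr9:20727004-20727253, minus strand: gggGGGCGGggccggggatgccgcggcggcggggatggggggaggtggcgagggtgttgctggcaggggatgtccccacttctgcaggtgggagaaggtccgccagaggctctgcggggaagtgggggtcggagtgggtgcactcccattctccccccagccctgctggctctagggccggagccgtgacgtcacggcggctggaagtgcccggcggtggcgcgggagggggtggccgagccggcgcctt
Olfml2a, chr2:38931730-38931979, plus strand: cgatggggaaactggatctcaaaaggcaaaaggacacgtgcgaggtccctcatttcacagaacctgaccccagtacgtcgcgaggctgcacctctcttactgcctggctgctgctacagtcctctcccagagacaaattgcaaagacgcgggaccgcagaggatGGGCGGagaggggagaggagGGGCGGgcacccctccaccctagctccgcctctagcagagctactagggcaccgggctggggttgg
Olfml2b, chr1:170644282-170644531, plus strand: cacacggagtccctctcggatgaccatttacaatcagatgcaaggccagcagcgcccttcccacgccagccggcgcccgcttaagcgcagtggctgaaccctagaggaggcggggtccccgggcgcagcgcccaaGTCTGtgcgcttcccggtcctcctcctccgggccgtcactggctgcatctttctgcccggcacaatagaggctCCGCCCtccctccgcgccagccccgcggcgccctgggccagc

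The 3 Olfm2 regions were unlike each other. The region before start 2 held 2 SMAD boxes, at positions -55 and -26 counted from the start, no GC box and 4 CG dinucleotides, with a GC content of 51.6%. The regions before starts 1 and 3 had GC contents of 76.0% and 74.8% with 22 CG dinucleotides each, 6 GC boxes and 1 SMAD box for start 1, and 1 GC box and no SMAD box for start 3. Over all 32851 mouse promoter regions of the same length the median GC content was 52.4%, with a median of 6 CG dinucleotides. Olfml2a had 2 GC boxes, at -86 and -66, and no SMAD box. Olfml2b had 1 SMAD box at -115 and 1 GC box at -42. The regions of Olfm1, which are not printed, held 1 SMAD box each, at -215 and -181, and 2 GC boxes each. A SMAD box occurred in 42.2% of all regions and a GC box in 32.7%, so both are common. None of the 11 regions of the family held an AP-1 site (TGANTCA), which occurred in 6.7% of all regions. None held a TATA box (TATAAA), which occurred in 12.4%, or the CArG box of serum response factor, which occurred in 1.5%. Which Olfm2 start these cells used was not tested.

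Depth and agreement of the libraries were examined over the whole table. The fragments behind each library, recovered from the steps between low FPKM values at an assumed fragment length of 200 nt, came to between 10.12 and 11.08 M. FPKM is the number of fragments per kilobase of transcript and per M (mega) mapped fragments, so levels of different genes can be compared per length. Pearson's r of log2(FPKM + 1) across tested genes was 0.876 to 0.940 within groups and 0.818 to 0.853 between them (genes are not independent replicates). The replicate 2 libraries of both groups stood apart from replicates 1 and 3, with deviations from their group means that correlated at 0.232 across genes, above the other 8 pairs of a Control and a TGF-β1 library, and values within replicates 1 and 3 are given beside the members' differences. Known TGF-β responses marked the treated libraries, with connective tissue growth factor (Ctgf) at 48.2 ± 19.4 FPKM in Control and 1154 ± 152 FPKM with TGF-β1 and collagen I (Col1a1) at 231 ± 6.10 and 953 ± 37.4 FPKM (mean ± SD, n = 3). Pdgfrb, the mesangial and pericyte receptor, was at 32.0 to 41.1 FPKM in Control and 28.4 to 29.9 FPKM with TGF-β1. Vimentin (Vim) was at 1922 FPKM or more in every library, but the mesangial markers Itga8, Des and Thy1 were at most 0.550 FPKM. All 5 endothelial markers were under 1 FPKM in every library. Of the podocyte markers, Nphs1 was at most 0.398 FPKM, but Synpo was at 7.34 to 12.8, Wt1 at 3.61 to 9.88 and Podxl at 0.986 to 2.48 FPKM. Of the macrophage markers, Ptprc was at most 0.0448 FPKM, but Cd68 was at 1.78 to 3.67 and Csf1r at 0.234 to 7.37 FPKM. The part of such cells in the results was not tested.

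Olfm2 was the member with the largest difference between groups, from nearly no fragments to a clearly expressed gene. In Control replicates 1 to 3 it was listed at 0.166, 0.222 and 0.0570 FPKM, which at this depth correspond to 3, 4 and 1 fragments. With TGF-β1 it was at 28.2, 27.3 and 29.5 FPKM, or 503, 450 and 520 fragments. Every TGF-β1 library was above every Control library by more than 2 orders of magnitude, and the 3 treated libraries lay close together, with a coefficient of variation of 3.86%. The means were 0.149 ± 0.0841 and 28.3 ± 1.10 FPKM (SD, n = 3), a ratio of 191, and the ratio of the summed fragments, 1473 against 8, was 190 with an exact 95% interval of 96.1 to 441 that covers counting error only. The difference was 4.68 on the log2(FPKM + 1) scale, where a gene that starts low changes by less than its ratio (SE 0.0956, 95% interval 4.45 to 4.91), and 4.75 within replicates 1 and 3. That was increase number 12 in order of size among the 11898 rows whose mean FPKM reached 1. Olfm2 passed this filter only through its TGF-β1 libraries. Among all rows, the level of Olfm2 stood at percentile 22.7 in Control and at percentile 83.3 with TGF-β1. Because these are bulk RNA samples, a change in the number of cells that express a gene and a change in RNA per cell cannot be told apart.

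Olfml2a differed in the other direction, from a low level in Control to a few fragments with TGF-β1. It was at 1.28, 1.77 and 2.14 FPKM in Control replicates 1 to 3 and at 0.102, 0.110 and 0.0344 FPKM with TGF-β1. These values rest on 76, 105 and 124 fragments in Control against 6, 6 and 2 with TGF-β1, and the groups did not overlap. The means were 1.73 ± 0.431 and 0.0821 ± 0.0415 FPKM (SD, n = 3), 21.1-fold lower with TGF-β1, with an exact 95% interval of 12.4 to 39.1 for the ratio of the fragments (counting error only). On the log2(FPKM + 1) scale the difference was -1.32 (SE 0.131, 95% interval -1.64 to -1.002), and -1.33 within replicates 1 and 3. The mean over the 6 libraries, 0.906 FPKM, fell just short of the filter at 1 FPKM, and the value therefore comes from a fit without that filter. The overlapping pseudogene Gm13473 was listed at 0 in 4 of the 6 libraries and at 1.03 FPKM at most.

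The other photomedin, Olfml2b, was the most abundant member in Control and did not separate the groups. Its levels were 11.7, 11.9 and 17.8 FPKM in Control replicates 1 to 3 and 14.9, 16.9 and 14.6 FPKM with TGF-β1. The highest value of all was that of Control replicate 3, and all 3 treated libraries lay between it and the other two Control libraries. The means were 13.8 ± 3.49 and 15.5 ± 1.27 FPKM (SD, n = 3), and the difference on the log2(FPKM + 1) scale was 0.17 (SE 0.170, 95% interval -0.24 to 0.59). It was 0.36 without Control replicate 3, where the same fit placed it past the threshold, and 0.02 within replicates 1 and 3, so this value turned on 1 library. The interval still includes changes of some size in either direction. The ratio of the summed fragments, 1426 with TGF-β1 against 1313 in Control, was 1.12 with an exact 95% interval of 1.04 to 1.21. That interval covers counting error only and leaves out the spread between libraries. The level of Olfml2b stood at percentile 72.4 of all rows in Control and at 74.1 with TGF-β1.

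Olfm1, the prototype noelin, was near the limit of what this depth can show. It was at 0.519, 1.13 and 0.298 FPKM in Control replicates 1 to 3 and at 0.110, 0.693 and 0.160 FPKM with TGF-β1. Replicate 2 was the highest library in both groups, and the groups overlapped. For each replicate number the TGF-β1 library was the lower one, although the numbers were not taken to pair the libraries. The means were 0.649 ± 0.430 and 0.321 ± 0.323 FPKM (SD, n = 3), with a difference of -0.32 on the log2(FPKM + 1) scale (SE 0.240, 95% interval -0.90 to 0.27) and of -0.31 within replicates 1 and 3. With replicate 2 as a batch term the SE was 0.0853, and that fit alone among the 19 other settings placed Olfm1 past the threshold. With the replicate number as a block the SE was 0.0890, and Olfm1 was not called. The SD was as large as the mean with TGF-β1, with a coefficient of variation of 101%.

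**Figure D1:**
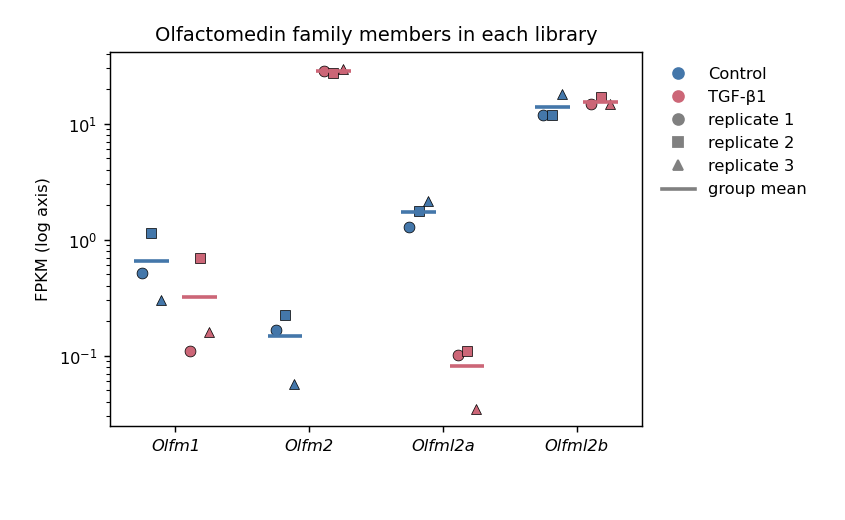
Level of each family member in each library, in FPKM on a log axis. Points are libraries (blue Control, red TGF-β1, shape by replicate number) and bars are group means. The 3 TGF-β1 libraries of Olfm2 sit at 27.3 to 29.5 FPKM against 0.222 FPKM at most in Control, Olfml2a is lower in every treated library, and Olfml2b and Olfm1 overlap between groups.

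The difference between the groups was thus in opposite directions in the noelin Olfm2 and the photomedin Olfml2a. The groups did not overlap in 2 of the 4 members, Olfm2 and Olfml2a, against 44.1% of all rows of the table. The filter at a mean FPKM of 1 was reached by Olfm2 and Olfml2b, by Olfm2 only through its TGF-β1 libraries (mean 0.149 FPKM in Control). With this filter limma called Olfm2 higher and did not call Olfml2b (adjusted p under 0.05). Of the tested rows 48.1% were called, 24.5% higher and 23.6% lower. Without the filter limma called 2 of the 4, Olfm2 higher and Olfml2a lower, where 30.5% of all rows were called, 14.6% higher and 16.0% lower. The members were chosen on this contrast, so nothing is read from these counts. The median difference over the tested rows was -0.017 and the median absolute difference 0.40 on the log2 scale.

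**Figure D2:**
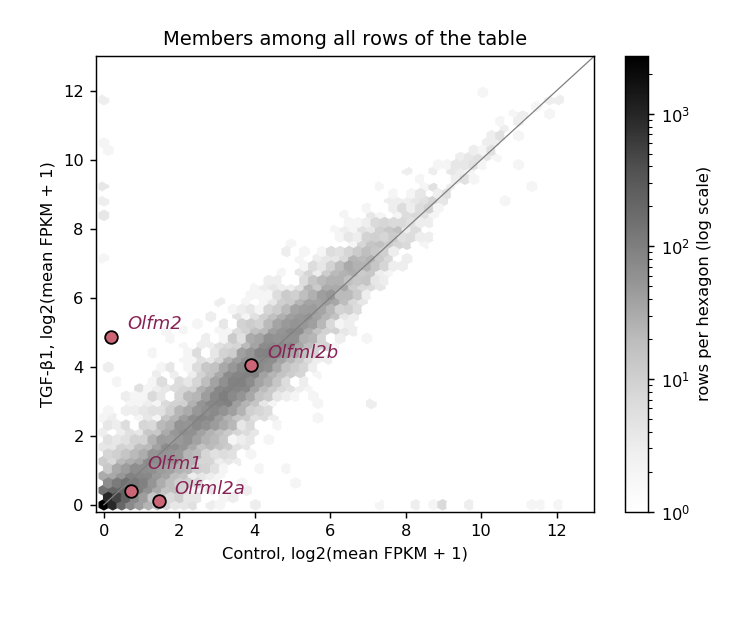
Mean level in Control (x axis) and with TGF-β1 (y axis) as log2(mean FPKM + 1) for the 19730 rows, shown as hexagons shaded by the number of rows on a log scale, with the 4 members as red points and the line of equal levels. Both axes end at 13, and 17 rows lie beyond. Olfm2 lies far above the line, Olfml2b on it and Olfml2a below it at the low end.

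The make-up of the family sum differed between the groups. The summed level of the 4 members was 13.7, 14.97 and 20.3 FPKM in Control and 43.3, 45.1 and 44.3 FPKM with TGF-β1, so every treated library was above every Control library. Olfml2b made up 84.2% ± 4.47 of this sum in Control against 35.0% ± 2.34 in treated cells (SD, n = 3), although its own level overlapped between groups. Olfm2 went from 0.993% ± 0.632 to 64.1% ± 3.08 of the sum. Olfml2a went from 10.6% ± 1.24 to 0.186% ± 0.0938, and Olfm1 from 4.26% ± 3.06 to 0.718% ± 0.713. The order of the members in Control was Olfml2b, Olfml2a, Olfm1 and Olfm2, and the ranges of Olfml2a and Olfm1 did not overlap there, nor did those of Olfm1 and Olfm2. With TGF-β1 the order was Olfm2, Olfml2b, Olfm1 and Olfml2a, and only Olfm1 and Olfml2a overlapped among neighbours in it.

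**Figure D3:**
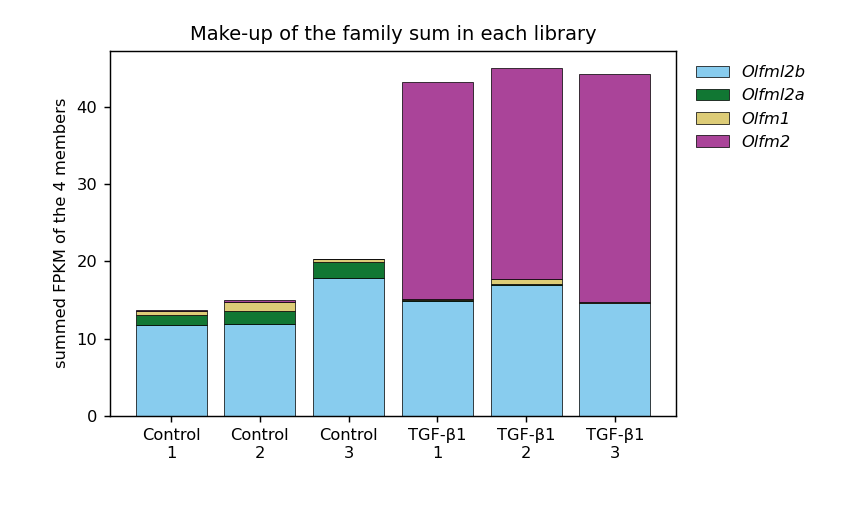
Summed FPKM of the 4 members in each library, stacked by member, on an axis that starts at 0. The Control bars reach 13.7 to 20.3 FPKM and consist mostly of Olfml2b, and the TGF-β1 bars reach 43.3 to 45.1 FPKM with Olfm2 as the largest portion.

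The other genes with an olfactomedin domain were examined beside the family. They were the latrophilins Lphn1, Lphn2 and Lphn3, which are adhesion receptors of the cell surface, myocilin (Myoc), known from the drainage tissue of the eye and from glaucoma, gliomedin (Gldn), known from the nodes of myelinated nerves, and Olfm4, which was not analysed here. Of the 3 that were tested, 2 were lower with TGF-β1 and none was higher, with a median difference of -0.40. Lphn2 (chromosome 3) was at 17.3, 15.99 and 13.5 FPKM in Control and at 9.37, 10.1 and 8.47 FPKM with TGF-β1, and it fell by 0.68 on the log2 scale (SE 0.116, limma adjusted p 0.00401). Lphn1 (chromosome 8) was at 12.4, 13.2 and 12.2 FPKM in Control and at 10.99, 8.64 and 8.42 FPKM with TGF-β1, and it fell by 0.40 (SE 0.115, limma adjusted p 0.0283). Lphn1 kept its call without TGF-β1 replicate 1 and lost it without any 1 of the other 5 libraries, at limma adjusted p-values up to 0.0927. Lphn3 was at 2.16 ± 0.514 and 1.88 ± 0.596 FPKM, with a log2 difference of -0.14 (95% interval -0.62 to 0.34), and its row names a retained-intron transcript of 2728 nt. Myoc was listed at 0 or at 1 fragment in every library, and Gldn was listed at 0 in all but TGF-β1 replicate 3, where it rested on 1 fragment. Neither the latrophilins nor these relatives had a row that rose as that of Olfm2 did.

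**Figure D4:**
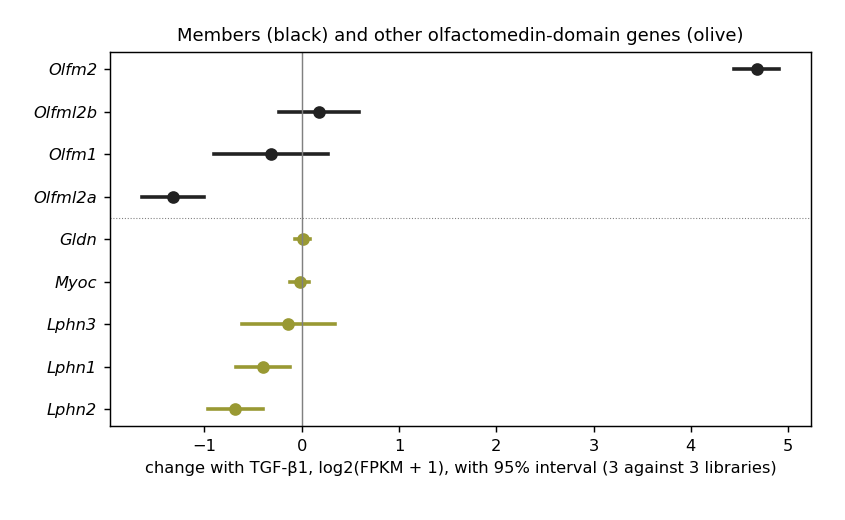
Difference between TGF-β1 and Control on the log2(FPKM + 1) scale with its 95% interval from limma (3 against 3 libraries) for the 4 members (black) and 5 other olfactomedin-domain genes (olive). Olfm2 lies at 4.68, the intervals of Olfml2b and Olfm1 include 0, Olfml2a lies at -1.32, and Lphn1 and Lphn2 lie below 0.

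Genes that the family's proteins are known to work with were grouped by the member they belong to. These lists were chosen with earlier results of these data known, so nothing is read from their counts of called genes. Of all tested rows 24.5% were called higher and 23.6% lower. Olfm2 has been described as a partner of serum response factor (Srf) in the smooth muscle program, in which it displaces the repressor Hey2. Of 10 genes of that program 8 were tested, 5 rose, none fell and 3 were not called, with a median difference of 0.66. Calponin (Cnn1), an actin-binding protein of smooth muscle, rose from 16.2 ± 1.16 to 154 ± 5.599 FPKM (3.17 on the log2 scale, limma adjusted p 4.68e-06). Smooth muscle actin (Acta2) rose by 1.96 and transgelin (Tagln) by 1.78 on the log2 scale, with limma adjusted p-values of 8.64e-05 and 1.20e-04. Hey2 rose as well, from 1.44 ± 0.244 to 3.22 ± 0.670 FPKM (0.78 on the log2 scale, limma adjusted p 0.00733), and Srf from 11.3 ± 1.53 to 16.9 ± 2.97 FPKM (0.54, limma adjusted p 0.0298). Of the 6 refits without 1 library, 4 no longer called Srf, those without Control replicate 1 or 2 or TGF-β1 replicate 1 or 3, at limma adjusted p-values up to 0.0989. Rescaling to the sum of rows of at least 300 nt also ended the Srf call, at a limma adjusted p of 0.105. Myocardin (Myocd) and smooth muscle myosin (Myh11), 2 defining genes of mature smooth muscle, were at most 0.0778 FPKM in every library.

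Olfm1 binds the Nogo receptor and AMPA-type glutamate receptors in neurons. Of 10 genes of these complexes 4 were tested, 3 rose and 1 fell, with a median difference of 0.62. The ligand Nogo (Rtn4) rose from 271 ± 28.7 to 522 ± 45.4 FPKM (0.94 on the log2 scale, limma adjusted p 0.00107), and the AMPA receptor subunit Gria4 from 2.73 ± 0.333 to 5.86 ± 0.498 FPKM (0.88, limma adjusted p 0.00120). The vesicle protein Vamp2 fell from 31.2 ± 2.84 to 18.8 ± 2.42 FPKM (-0.71, limma adjusted p 0.00398), and Gria3 rose by 0.36 (limma adjusted p 0.0166, lost without TGF-β1 replicate 3 at 0.0538). The Nogo receptor itself, Rtn4r, and its co-receptors Lingo1 and Ngfr were at most 0.320 FPKM in every library, while the ligand was abundant.

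Chondroitin sulphate, the sugar chain that the photomedins bind, is made by a set of chain-extending and sulphate-adding enzymes. Of 14 such genes 10 were tested, 8 rose, 1 fell and 1 was not called, with a median difference of 0.96. The chain-starting enzyme Csgalnact1 rose from 2.23 ± 0.235 to 14.01 ± 1.02 FPKM (2.22 on the log2 scale, limma adjusted p 2.66e-05). The sulphotransferases Chst11, which acts at the 4-position, and Ust, which acts on the uronic acid, rose by 1.96 and 1.95 (limma adjusted p 1.59e-04 and 7.51e-05). Chst15, the enzyme that makes the doubly sulphated E form to which photomedins are known to bind, was the one that fell. It was at 5.95, 7.20 and 6.398 FPKM in Control and at 2.34, 2.36 and 2.17 FPKM with TGF-β1 (-1.19 on the log2 scale, limma adjusted p 2.47e-04). Thus Olfml2a was lower and Olfml2b overlapped between groups in cells where most of these enzymes were higher and Chst15 was lower.

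The BMP and chordin genes, on which Olfml3 has been described to act, went both ways. Of 10 genes 7 were tested, 3 rose and 4 fell, with a median difference of -0.53. The procollagen C-proteinase enhancers moved in opposite directions, with Pcolce2 rising from 0.843 ± 0.428 to 9.63 ± 1.22 FPKM (2.55 on the log2 scale, limma adjusted p 1.62e-04) and Pcolce falling from 1120 ± 92.4 to 283 ± 28.0 FPKM (-1.98, limma adjusted p 6.06e-05). The proteases Tll1 and Bmp1, which cleave chordin and procollagens, rose by 1.85 and 1.52 on the log2 scale (limma adjusted p 1.25e-04 and 3.46e-04). Bmp4 fell by 1.58 and its antagonist chordin (Chrd) by 0.82 (limma adjusted p 6.64e-04 and 0.0167). Olfml3 itself was not analysed here, so this list has no member of the family beside it.

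The latrophilins pair across cells with teneurins (Odz1 to Odz4 in this annotation), Flrt proteins and Unc5 receptors. Of 11 such genes 3 were tested, 2 rose and 1 was not called, with a median difference of 0.74. The netrin receptor Unc5b rose from 3.19 ± 0.568 to 33.6 ± 3.07 FPKM (3.05 on the log2 scale, limma adjusted p 2.15e-05) and Flrt2 from 6.48 ± 0.337 to 11.5 ± 0.721 FPKM (0.74, limma adjusted p 8.04e-04). Flrt3 was at 3.63 ± 0.412 and 3.32 ± 0.327 FPKM. Below the filter, the fit on all rows called Flrt1 lower, at 0.962 ± 0.138 and 0.170 ± 0.125 FPKM (limma adjusted p 0.00337), and Unc5c lower, at 0.413 ± 0.0477 and 0.0720 ± 0.0446 FPKM (limma adjusted p 0.00350). Partners of the latrophilins thus went both ways. Over the 6 lists together 29 of the 35 tested genes were called, beside 48.1% of all tested rows. As the lists were chosen with earlier results of these data known, nothing is read from this count.

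The rows whose pattern over the 6 libraries was most like that of a member were sought among 6520 rows whose mean FPKM reached 10 and, where a length was known, at least 300 nt. For Olfm2 they were the retinaldehyde dehydrogenase Aldh1a3, the activin subunit Inhba and the growth factor receptor Fgfr1, with Pearson's r of 0.99998, 0.9996 and 0.9995 on the log2(FPKM + 1) scale. Aldh1a3 had levels similar to those of Olfm2 with TGF-β1, at 33.1, 32.4 and 33.8 FPKM. In Control it was low but above Olfm2, at 0.537, 0.605 and 0.406 FPKM against 0.222 FPKM at most. The points share 2 groups of libraries that lie far apart, so r reflects mostly the difference between groups, and 306 rows had an r over 0.99 with Olfm2. For Olfml2b the most alike were Fubp1, the pseudogene Dynlt1-ps1 and Polr2c, with r of 0.989, 0.987 and 0.982, and no row reached 0.99. Fubp1 was also highest in Control replicate 3, at 20.2 FPKM, and next highest in TGF-β1 replicate 2, at 19.5 FPKM, the order that Olfml2b showed.

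The genes next to the members were listed from the annotation, and those named here were chosen after their values were seen, so they carry no test. The nearest gene with a row on one side of each noelin gene was a fibrillar collagen, also for Olfm3, which itself was not analysed here. Col5a3 lay 41.8 kb from Olfm2 with no coding gene between, Col5a1 lay 153 kb from Olfm1 with 1 coding gene between, and Col11a1 lay 683 kb from Olfm3 with none between. Col5a3, a minor chain of collagen V, was at 0.918, 0.582 and 0.784 FPKM in Control and at 17.9, 15.2 and 16.5 FPKM with TGF-β1, and so was low in Control and clearly expressed with TGF-β1, as Olfm2 was. Col5a1 was at 37.3 to 41.5 FPKM in Control and 115 to 125 FPKM with TGF-β1, while Olfm1 beside it overlapped between groups. Col11a1 was at 50.8 to 55.6 FPKM in Control and 89.1 to 107 FPKM with TGF-β1. The orphan nuclear receptor Nr6a1, whose start lies 4.29 kb from that of Olfml2a on the opposite strand, was at 2.81, 3.28 and 2.45 FPKM in Control and at 0.458, 0.408 and 0.382 FPKM with TGF-β1, lower in every treated library as Olfml2a was. The stress sensor Atf6, 21.7 kb from Olfml2b, was at 5.33 to 5.72 FPKM in Control and 9.61 to 10.2 FPKM with TGF-β1.

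**Figure D5:**
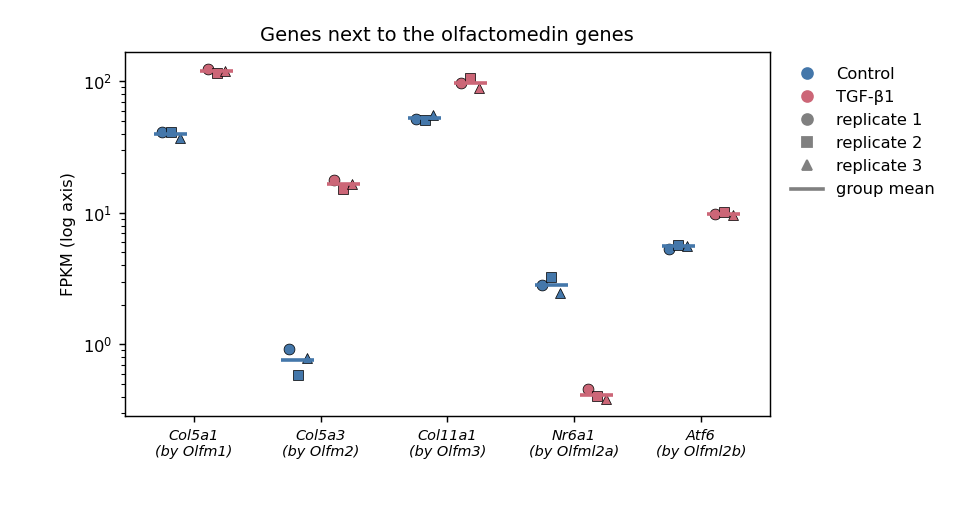
Level of 5 genes next to olfactomedin genes in each library, in FPKM on a log axis. Points are libraries (blue Control, red TGF-β1, shape by replicate number) and bars are group means. The collagens Col5a1, Col5a3 and Col11a1 and Atf6 were higher in every treated library, and Nr6a1 was lower in every one.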

How the data were processed

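RNA-Seq was performed on 3 Control and 3 TGF-β1-treated samples of mesangial cells. After removal of low-quality reads, the authors aligned to mouse build mm9 with TopHat (TopHat2 2.0.11 in the submitters' processing notes) and obtained FPKM from Cufflinks. Each library has 1 deposited column of FPKM, and no further scaling is stated. Whether strand was used is not stated, so overlapping genes are uncertain. Group and replicate were read from the labels of the samples.

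Members were found by gene symbol, and positions, lengths and exons by transcript identifier in GENCODE M1 (19699 of 19730 rows were found). Differential expression was computed by limma (version 3.58.1, R 4.3.3), using lmFit and a trended eBayes on log2(FPKM + 1). Tests were two-sided, and p-values were adjusted by Benjamini-Hochberg over the 11898 rows whose mean FPKM reached 1. A row with an adjusted p under 0.05 was called. Members and list genes under the filter came from the same fit on all rows. The fit was also run on simulated data with normal noise and few changed rows. Those conditions differ from these data, so nothing is read from that run. The authors used a count model, and counts were not used here.

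Depth came from FPKM values under 0.6 of genes with 1 transcript of at least 1000 nt. For each library the depth was chosen to put the largest share of these values within 0.05 of a whole number of fragments. Only values that rest on few fragments entered this share. It came to 99.6% to 99.9% per library, and as the aim of the choice it is no separate check. An FPKM of 1 in a transcript of 1 kb rests on about 8.1 fragments in the shallowest library. Intervals on fragments are exact and cover counting error only. Motifs were searched on both strands of RefSeq promoter regions.

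The members, the gene lists and the tests were chosen with earlier results of these data known. The genes named are all members, every other olfactomedin-domain gene, in each list the 3 largest changes among called genes and partners of a member, the 3 rows most like each member with a mean FPKM of at least 1, genes that overlap a member, cell type markers, neighbours of the members (chosen after their values were seen), and Ctgf and Col1a1 as a check of the treatment. A few genes that this rule or the lists select are not reported here. Alternatives covered the pseudocount, the filter, the scaling, the threshold, the trend, the replicate number as a block, replicate 2 as a batch and leaving out each library. Other steps used scipy 1.17.1, pandas 2.3.3 and numpy 2.4.6 under Python 3.11.15, with matplotlib 3.10.9 for plots.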

Additional observations from a re-analysis of the deposited data

How the results depend on the processing

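The members' values were recomputed under 19 other settings, 6 of them leaving out 1 library and 1, with rows of at least 300 nt only, chosen after seeing the data. Olfm2 was positive in all 20 fits, reported one included, at 4.57 to 6.90, and Olfml2a negative in all 20, at -3.33 to -1.18, the largest sizes with a pseudocount of 0.1. Olfm1 was negative in all 20, at -0.94 to -0.12, and Olfml2b positive in 19, at -0.0072 to 0.36. The negative value came from rescaling to the sum of rows of at least 300 nt, which shifted the median of all tested rows by -0.17. Of the members, 1 was past the threshold as reported, 2 without the filter, and 1 to 2 when 1 library was left out. Olfml2b passed without Control replicate 3, at 0.36, within 0.0783 to 0.36 over the libraries left out. Olfm1 passed only with replicate 2 as a batch term, at -0.32. In that fit 3 of the 4 members were called without the filter. The share of tested rows called was 48.1% as reported, 30.5% without the filter and 30.9% at an adjusted p under 0.01. The cause of these changes was not tested. Of the last pair of settings, the first took in a larger number of rows and the second used a stricter threshold.

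Replicate numbers are shared between the groups. Deviations from the group means correlated at 0.0921, 0.232 and 0.0853 across genes for libraries of the same number, and Control replicate 1 correlated best with TGF-β1 replicate 3, at 0.117, so the numbers were not taken to pair the libraries, although those of replicate 2 deviated together. With the number as a block the share of called rows was 45.3%, with 1 member called as reported, 2 without the filter and 29 list genes.

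The lists together held 24 to 33 called genes over the settings. Of 40 called genes in the lists, markers, treatment check and family (Olfm2), 31 were called in every setting that tested them. In every fit without 1 library 34 were called, and none changed sign. The depth limits statements on Olfm1, Myoc and Gldn most, and on Olfml2a with TGF-β1, which rests on 14 fragments in all.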

Other observations

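Markers of mesangial and other cell types moved in places and are given as values. The macrophage receptor Csf1r was at 6.27 ± 0.979 FPKM in Control and 0.411 ± 0.156 FPKM with TGF-β1 (SD, n = 3), while Ptprc was at most 0.0448 FPKM in every library and Cd68 was at 2.79 ± 0.836 and 2.22 ± 0.448 FPKM and was not called. The podocyte genes Wt1, Synpo and Podxl were called lower, with log2 changes of -0.80, -0.58 and -0.56 (limma adjusted p 0.0110, 0.00242 and 0.0185), while Nphs1, which defines podocytes, was at most 0.398 FPKM. The call of Podxl was lost without Control replicate 2, TGF-β1 replicate 1 or TGF-β1 replicate 3, at adjusted p-values up to 0.0572. Of the mesangial and pericyte markers, Pdgfrb was called lower (limma adjusted p 0.0396), a call lost in 10 of the 19 other settings. Vim and Serpine2 were called higher (limma adjusted p 0.00696 and 0.0103), and Gata3 was not called. The pericyte proteoglycan Cspg4 was at 0.0735 ± 0.0367 FPKM in Control and 1.21 ± 0.257 FPKM with TGF-β1. The keratin Krt18 was at 0.279 ± 0.120 and 1.57 ± 0.219 FPKM, with Krt8 and Cdh1 at 0.173 FPKM or less. The 2 neuronal markers with a row, Elavl4 and Syp, were at most 0.705 FPKM. Whether any of these bears on the olfactomedin genes was not tested.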
